A study of Mus musculus with 4 samples.

Results

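The transcripts of 10 genes that drive or restrain cell division were examined in mouse embryonic stem cells null for both B-type lamins (dKO) and in wild-type (wt) cells. The genes were taken by symbol: the cyclins Ccnd1, Ccnd3, Ccne1, Ccna2 and Ccnb1, the cyclin-dependent kinases (CDKs) Cdk1, Cdk2 and Cdk4, and the CDK inhibitors Cdkn1b and Cdkn2a. All 10 had a row among the 37991 genes of the count table, and all 10 were among the 14027 genes that passed the filter on low counts and were tested.

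Cyclins are regulatory subunits that bind and activate CDKs, and their successive synthesis and destruction orders the phases of the cell cycle. D-type cyclins with Cdk4 or Cdk6 act in G1 and phosphorylate the retinoblastoma protein family, which releases E2F transcription factors. Cyclin E with Cdk2 acts at entry into S phase, cyclin A during S phase and G2, and cyclin B with Cdk1 at mitosis. Inhibitors of the Cip/Kip family bind cyclin-CDK complexes broadly, and those of the INK4 family bind Cdk4 and Cdk6. Mouse embryonic stem cells are known for a short G1 phase and for high CDK activity.

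RNA of 2 dKO and 2 wt libraries, labelled as biological replicates, was sequenced. Neither the dKO nor the wt label gives the origin of a line or the number of clones, so a line difference and lamin loss cannot be told apart, and p-values measure only the spread between these libraries. Every library carried the strain label ZHBTc4, a name used for an embryonic stem cell line whose Oct4 comes from a tetracycline-repressible transgene, and no treatment was given in the labels. No age applies to these cultured cells.

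Total counts per library ran from 12899964 to 16697970. Lmnb1 had 69 and 101 counts in dKO libraries and 8538 and 8321 counts in wt libraries, and Lmnb2 had 41 and 55 counts in dKO libraries and 1343 and 1787 counts in wt libraries, as the labels say. The 9 embryonic stem cell markers together had 5987 and 6351 CPM (counts scaled to library size by the TMM method) in dKO libraries and 5283 and 5302 CPM in wt libraries. Of these, Zfp42 had 1449 and 1435 CPM in dKO and 666 and 613 CPM in wt libraries. Klf4 had 193 and 242 CPM in dKO and 136 and 156 CPM in wt libraries. Both dKO libraries lay above both wt libraries for 3 markers (Zfp42, Klf4 and Esrrb) and below them for 2 (Utf1 and Dppa5a). Over all genes tested these shares were 17.2% and 16.4%. None of the 9 passed the test described below, 5 of the 9 had a negative log2 fold change, and the list median was -0.013. The 8 fibroblast markers together stayed at 4.85 and 5.91 CPM in dKO and 7.27 and 12.4 CPM in wt libraries, and Lum was at 0 counts in both dKO libraries. The 6 primitive endoderm markers together had 37.5 and 31.9 CPM in dKO and 28.1 and 25.0 CPM in wt libraries. The 5 germ layer markers with a row had 113 and 126 CPM in dKO and 118 and 145 CPM in wt libraries. Among these 5, Otx2 was the highest, with 71.7 and 84.6 CPM in dKO and 84.0 and 101 CPM in wt libraries. T and Mixl1 did not exceed 2.10 CPM in any library. The part of any other cells in the results below was not tested.

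No member passed the test between genotypes, fitted with genotype as the only term. With replicate number as a further term, 3 members (Ccnd1, Ccnd3 and Cdkn1b) and 9.26% of all genes passed. The labels do not say that these numbers pair libraries. The S and M phase genes Ccna2, Ccnb1 and Cdk1 lay within 0.11 log2 units of no change, and so did Cdk4 and Ccne1. The D-type cyclins and Cdkn1b had the largest differences, with Ccnd1 and Cdkn1b higher and Ccnd3 lower on average in dKO cells. The quasi-likelihood test of edgeR, with Benjamini-Hochberg adjustment and a threshold of 0.05, called 12 of 14027 genes (0.0855%), so 0 of 10 members is close to that background. At an unadjusted p under 0.05 there was 1 member (Ccnd1) of 10, against 5.57% of all genes. DESeq2 called 0.684% of all genes and limma-voom 0.0356%, and both called 0 members. Both dKO libraries lay above both wt libraries for 3 members, Ccnd1, Ccna2 and Cdkn1b, and below them for 0; over all genes tested these shares were 17.2% and 16.4%. The members' median log2 fold change, dKO minus wt, was 0.03, against -0.002 over all genes tested. In bulk RNA, fewer cells of a phase or type and less RNA per cell cannot be told apart.

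**Figure D1:**
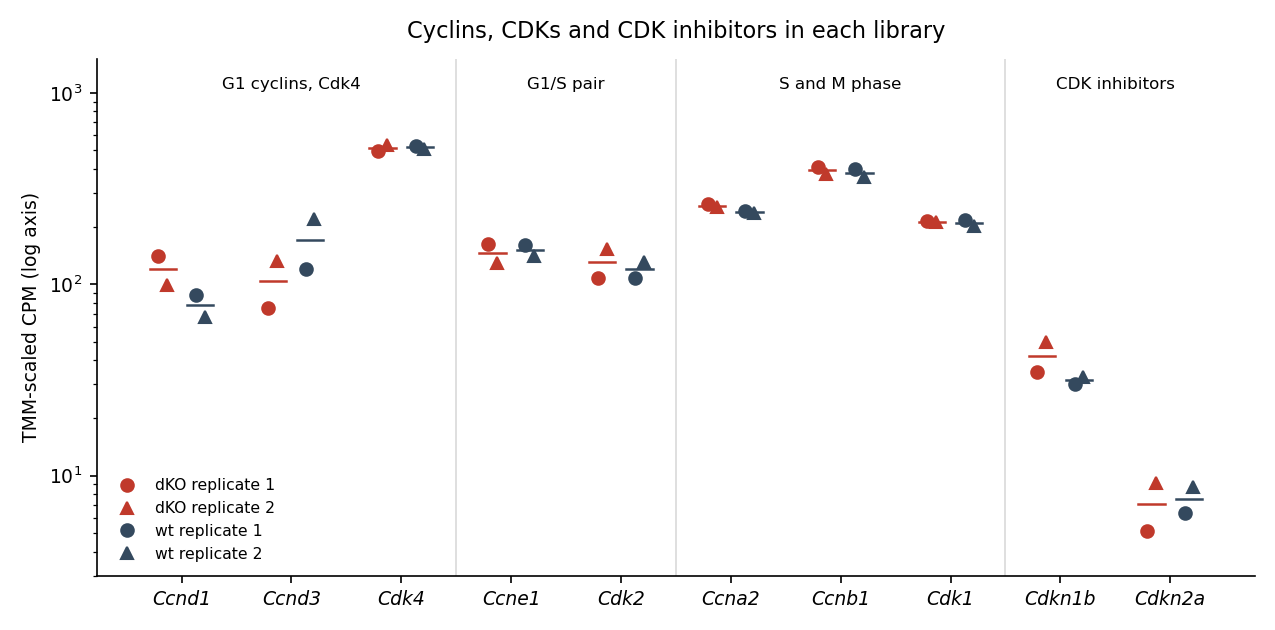
TMM-scaled CPM of the 10 members on a log axis, ordered by role, with dKO libraries in red left of wt libraries in dark blue, circles for replicate 1, triangles for replicate 2 and a line at the mean of each genotype. Ccnd1 is higher in both dKO libraries (141 and 99.6 CPM) than in both wt libraries (87.3 and 67.6 CPM), while Cdk4, Ccna2, Ccnb1 and Cdk1 are nearly level across all 4.

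The test had different precision for different members. The 95% interval of the fold change lay within 1.5-fold of no change in either direction for 5 of 10 members, Cdk4, Ccne1, Ccna2, Ccnb1 and Cdk1, and for 37.2% of all genes tested. It lay within 2-fold for 8 members and for 65.4% of all genes. The exceptions were Ccnd1, whose interval reached 2.25-fold higher in dKO cells, and Ccnd3, whose interval ran from 0.323 to 1.16 times the wt level.

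Ccnd1 (ENSMUSG00000070348, chromosome 7, 152115836 to 152125774 in the table's coordinates) encodes cyclin D1, an activating partner of Cdk4 and Cdk6. It had 141 and 99.6 CPM in dKO replicates 1 and 2, against 87.3 and 67.6 CPM in wt replicates 1 and 2. The dKO values lay above the wt values, and the lower dKO library stood 12.3 CPM above the higher wt library. Mean levels were 120 ± 29.4 CPM in dKO and 77.5 ± 14.0 CPM in wt cells (SD, n = 2 each). The fitted log2 fold change was 0.64 (SE 0.22, 95% interval 0.10 to 1.17, edgeR adjusted p = 0.786). Leaving out dKO replicate 1 gave 0.37, and leaving out dKO replicate 2 gave 0.87.

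Ccnd3 (ENSMUSG00000034165, chromosome 17, 47642000 to 47736632) encodes cyclin D3, which has the same partners. It had 75.1 and 132 CPM in dKO replicates 1 and 2, against 119 and 220 CPM in wt replicates 1 and 2. The genotypes overlapped, and in each of them replicate 2 was the higher library, by 1.76-fold in dKO and 1.84-fold in wt cells. Between libraries of the same number the dKO value was the lower, though the labels do not say that numbers pair libraries. The median gene differed 1.17-fold between the dKO libraries and 1.19-fold between the wt libraries. The log2 fold change of Ccnd3 was -0.71 (SE 0.37, 95% interval -1.63 to 0.21, edgeR adjusted p = 0.937). Leaving out wt replicate 2 gave -0.20 and leaving out dKO replicate 2 gave -1.17.

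Ccnd2, the remaining D-type cyclin, was scarce, with 5.83 and 8.17 CPM in dKO and 5.32 and 13.0 CPM in wt libraries. Levels of different genes were compared as CPM per kb of annotated exons. On this scale the 3 D-type cyclins summed to 39.2 and 37.1 CPM per kb in dKO libraries and 32.7 and 40.7 CPM per kb in wt libraries, which overlapped. Ccnd1 made up 76.6% and 57.0% of that sum in dKO libraries and 56.7% and 35.2% in wt libraries. The lowest dKO share thus lay just above the highest wt share, a gap far smaller than the spread within either genotype. Within each replicate number the dKO share of Ccnd1 was the higher, 76.6% against 56.7% and 57.0% against 35.2%. The labels do not say that these numbers pair libraries. Ccnd3 made up 21.9% and 40.6% in dKO and 41.6% and 61.4% in wt libraries. With 2 libraries per genotype the smallest p that an exact permutation test of a share allows is 1 in 3, and none was used. Exon length matters here: per kb of the longest transcript, a choice made after the data were seen, the mean share of Ccnd1 was 53.9% in dKO and 32.9% in wt cells.

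**Figure D2:**
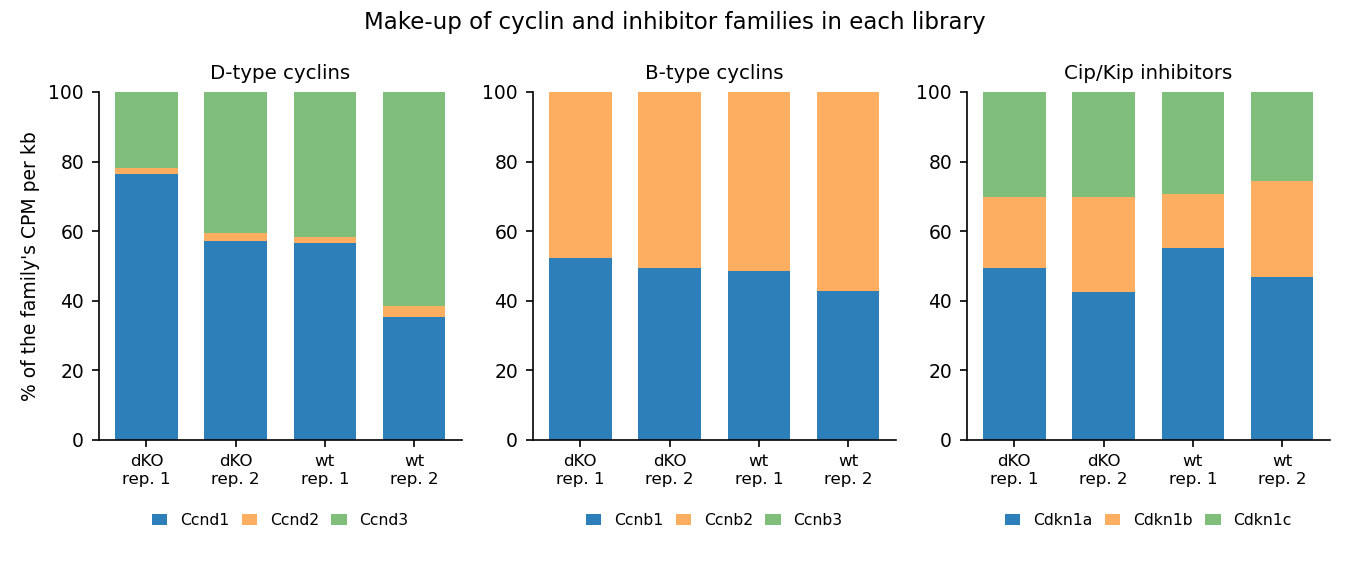
Stacked bars give each gene's percent of its family's summed CPM per kb of exons in each library, dKO left and wt right, for D-type cyclins, B-type cyclins and Cip/Kip inhibitors. Ccnd1 holds 76.6% and 57.0% of the D-type level in dKO libraries and 56.7% and 35.2% in wt libraries, and Ccnb3 is too low to see.

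Cdk4 (ENSMUSG00000006728, chromosome 10, 126500590 to 126504976), the kinase that D-type cyclins activate, had 499 and 534 CPM in dKO libraries and 526 and 509 CPM in wt libraries. The groups overlapped completely, with a log2 fold change of -0.004 (SE 0.12, 95% interval -0.29 to 0.28, edgeR adjusted p = 0.9997). Its relative Cdk6 had 19.9 and 15.6 CPM in dKO and 10.2 and 10.8 CPM in wt libraries, without overlap. No relative passed (0 of 8 tested, by edgeR, DESeq2 or limma-voom), against 0.0855%, 0.684% and 0.0356% of all genes. The log2 fold change of Cdk6 was 0.76 (SE 0.21, unadjusted p = 0.0125, edgeR adjusted p = 0.720), which did not pass. With replicate number as a further term Cdk6 passed, as did 9.26% of all genes. Per kb, Cdk6 contributed 0.917% and 0.673% of the summed level of both kinases in dKO libraries and 0.446% and 0.489% in wt libraries.

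Ccne1 (ENSMUSG00000002068, chromosome 7, 38883003 to 38892553) encodes cyclin E1, which activates Cdk2 at the start of S phase. It had 161 and 129 CPM in dKO libraries and 161 and 140 CPM in wt libraries, which overlapped, with a log2 fold change of -0.05 (95% interval -0.43 to 0.33, edgeR adjusted p = 0.994). Its relative Ccne2 had 27.6 and 34.8 CPM in dKO and 24.6 and 30.7 CPM in wt libraries. Ccne1 held 88.5% and 83.0% of the E-type level per kb in dKO libraries and 89.6% and 85.7% in wt libraries, so the make-up of this family overlapped between genotypes.

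Cdk2 (ENSMUSG00000025358, chromosome 10, 128134995 to 128142107), the kinase partner of cyclins E and A, had 108 and 153 CPM in dKO libraries and 108 and 131 CPM in wt libraries. The lower library of each genotype was nearly the same, and the spread came from the other one. The log2 fold change was 0.13 (SE 0.20, 95% interval -0.37 to 0.62, edgeR adjusted p = 0.987), and it was -0.14 without dKO replicate 2.

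Cdk4 and the S and M phase members had the narrowest ranges over the 4 libraries, with Cdk4 at 0.097, Cdk1 at 0.10, Ccna2 at 0.15 and Ccnb1 at 0.17 log2 CPM. Ccna2 (ENSMUSG00000027715, chromosome 3, 36463788 to 36471072) encodes cyclin A2, and it had 261 and 252 CPM in dKO libraries and 241 and 235 CPM in wt libraries. These values did not overlap, but the difference was small, with a log2 fold change of 0.11 (SE 0.11, 95% interval -0.17 to 0.38, edgeR adjusted p = 0.981). Its germline relative Ccna1 did not pass the filter, with 5 and 10 counts in dKO and 4 and 9 counts in wt libraries.

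Ccnb1 (ENSMUSG00000041431, chromosome 13, 101548605 to 101556525) encodes cyclin B1, the mitotic partner of Cdk1. It had 410 and 377 CPM in dKO libraries and 399 and 364 CPM in wt libraries, which overlapped, with a log2 fold change of 0.04 (SE 0.12, 95% interval -0.26 to 0.35, edgeR adjusted p = 0.994). Cdk1 (ENSMUSG00000019942, chromosome 10, 68799383 to 68815686), the kinase that drives mitosis, had 213 and 211 CPM in dKO and 217 and 202 CPM in wt libraries. Both dKO values of Cdk1 lay between the wt values, and its log2 fold change was 0.02 (SE 0.11, 95% interval -0.26 to 0.30, edgeR adjusted p = 0.995).

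Ccnb2, a second mitotic cyclin, had 135 and 140 CPM in dKO libraries and 154 and 176 CPM in wt libraries, without overlap. Its log2 fold change was -0.26 (SE 0.12, 95% interval -0.57 to 0.04, edgeR adjusted p = 0.907), which did not pass. Ccnb1 therefore held 52.4% and 49.4% of the B-type level per kb in dKO libraries and 48.5% and 42.9% in wt libraries. Ccnb3 did not pass the filter, with 1 count in each dKO and 2 counts in each wt library.

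The promoters of Ccnb1 and Cdk1 are shown because their products act together at mitosis and both genes were level here. The windows run from 250 bases before to 50 bases after the annotated start (RefSeq, GRCm38.p6), 5′ to 3′ on the gene's strand. Capitals mark matches on either strand to CCAAT (the NF-Y box), TTTGAA (a cell cycle homology region element) and TTCCCGC or TTGGCGC (E2F-like).
Ccnb1, chr13:100786437-100786736, minus strand: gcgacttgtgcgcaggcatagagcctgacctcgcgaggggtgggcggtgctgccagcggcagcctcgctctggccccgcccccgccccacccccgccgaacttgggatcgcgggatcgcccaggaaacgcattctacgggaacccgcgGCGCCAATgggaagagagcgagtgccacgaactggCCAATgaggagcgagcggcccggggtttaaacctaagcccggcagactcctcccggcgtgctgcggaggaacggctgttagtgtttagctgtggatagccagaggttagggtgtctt
Cdk1, chr10:69352863-69353162, minus strand: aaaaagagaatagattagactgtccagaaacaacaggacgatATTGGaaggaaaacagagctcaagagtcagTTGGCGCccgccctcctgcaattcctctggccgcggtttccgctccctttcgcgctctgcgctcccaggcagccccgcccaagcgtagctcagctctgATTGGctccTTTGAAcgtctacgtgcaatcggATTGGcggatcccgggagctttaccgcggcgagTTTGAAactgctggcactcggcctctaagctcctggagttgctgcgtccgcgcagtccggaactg
The Ccnb1 window held CCAAT matches 99 and 67 bases before the start and a TTGGCGC match 102 bases before it, which overlaps the first CCAAT. The Cdk1 window held CCAAT matches 208, 80 and 48 bases before the start, TTTGAA matches 71 and 15 bases before it and a TTGGCGC match 178 bases before it. Among all 32851 promoter windows of the same length, 37.4% held CCAAT, 17.9% TTTGAA, 4.60% TTCCCGC and 2.45% TTGGCGC. A match is a description of letters only, and variant forms of these elements were not sought. Of the members, 8 had such an entry, and Ccnd1 and Ccna2 had none.

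Cdkn1b (ENSMUSG00000003031, chromosome 6, 134870419 to 134875531) encodes the Cip/Kip inhibitor Kip1. It had 34.9 and 49.8 CPM in dKO libraries and 30.2 and 32.6 CPM in wt libraries. The groups did not overlap, although dKO replicate 1 stood only 2.27 CPM above the higher wt library. Mean levels were 42.3 ± 10.5 CPM in dKO and 31.4 ± 1.72 CPM in wt cells (SD, n = 2 each). The fitted log2 fold change was 0.43 (SE 0.20, 95% interval -0.07 to 0.93, edgeR adjusted p = 0.907). Leaving out dKO replicate 2 gave 0.16, and leaving out dKO replicate 1 gave 0.67.

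The other Cip/Kip genes overlapped between genotypes. Cdkn1a, a p53 target that encodes Cip1, had 65.4 and 60.2 CPM in dKO and 82.4 and 43.5 CPM in wt libraries, where the wt values enclosed the dKO values. Cdkn1c, an imprinted gene that encodes Kip2, had 22.8 and 24.6 CPM in dKO and 25.1 and 13.6 CPM in wt libraries. Per kb the 3 genes summed to 37.3 and 40.0 CPM per kb in dKO and 42.1 and 26.1 CPM per kb in wt libraries. Cdkn1b made up 20.6% and 27.4% of that sum in dKO and 15.7% and 27.5% in wt libraries.

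Cdkn2a (ENSMUSG00000044303, chromosome 4, 88920377 to 88940557) had the fewest counts of the members. It had 84 and 153 counts in dKO libraries and 82 and 132 counts in wt libraries, or 5.16 and 9.13 CPM in dKO and 6.41 and 8.68 CPM in wt libraries. The dKO values enclosed the wt values. The log2 fold change was -0.08 (SE 0.36, 95% interval -0.97 to 0.81, edgeR adjusted p = 0.995), and it ran from -0.55 to 0.28 with 1 library left out, so its direction was not settled. Per kb of exons the other INK4 genes measured, Cdkn2b and Cdkn2c, lay below it in every library. Cdkn2b had 1.41 and 1.43 CPM in dKO and 2.74 and 2.04 CPM in wt libraries, without overlap (log2 fold change -0.74, 95% interval -1.69 to 0.21, edgeR adjusted p = 0.935). Cdkn2c had 0.675 and 1.37 CPM in dKO and 1.02 and 1.31 CPM in wt libraries, and Cdkn2d was not analysed here.

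The Cdkn2a locus encodes the unrelated proteins Arf and Ink4a from separate first exons, and the count row joins both. Their starts are shown because the counts cannot be divided between them. The windows and capitals are as above, and the starts lie 12427 bases apart.
Cdkn2a, upstream start, chr4:89294570-89294869, minus strand: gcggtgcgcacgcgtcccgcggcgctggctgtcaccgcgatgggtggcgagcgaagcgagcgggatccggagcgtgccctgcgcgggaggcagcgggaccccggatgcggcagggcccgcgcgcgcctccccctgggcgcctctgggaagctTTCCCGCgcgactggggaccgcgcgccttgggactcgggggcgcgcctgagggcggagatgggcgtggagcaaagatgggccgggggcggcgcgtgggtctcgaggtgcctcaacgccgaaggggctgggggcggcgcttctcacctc
Cdkn2a, downstream start, chr4:89282143-89282442, minus strand: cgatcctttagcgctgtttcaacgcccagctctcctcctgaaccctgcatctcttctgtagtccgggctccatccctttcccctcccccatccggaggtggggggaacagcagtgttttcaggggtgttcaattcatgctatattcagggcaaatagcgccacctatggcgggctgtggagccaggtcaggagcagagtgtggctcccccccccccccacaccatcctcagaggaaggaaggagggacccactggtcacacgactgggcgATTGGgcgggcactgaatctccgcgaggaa
The upstream window, that of Arf, held a TTCCCGC match 98 bases before its start, and the downstream window, that of Ink4a, held a CCAAT match 21 bases into the transcript. Ccnd3 likewise has 2 annotated starts, 88416 bases apart, joined in its row.

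**Figure D3:**
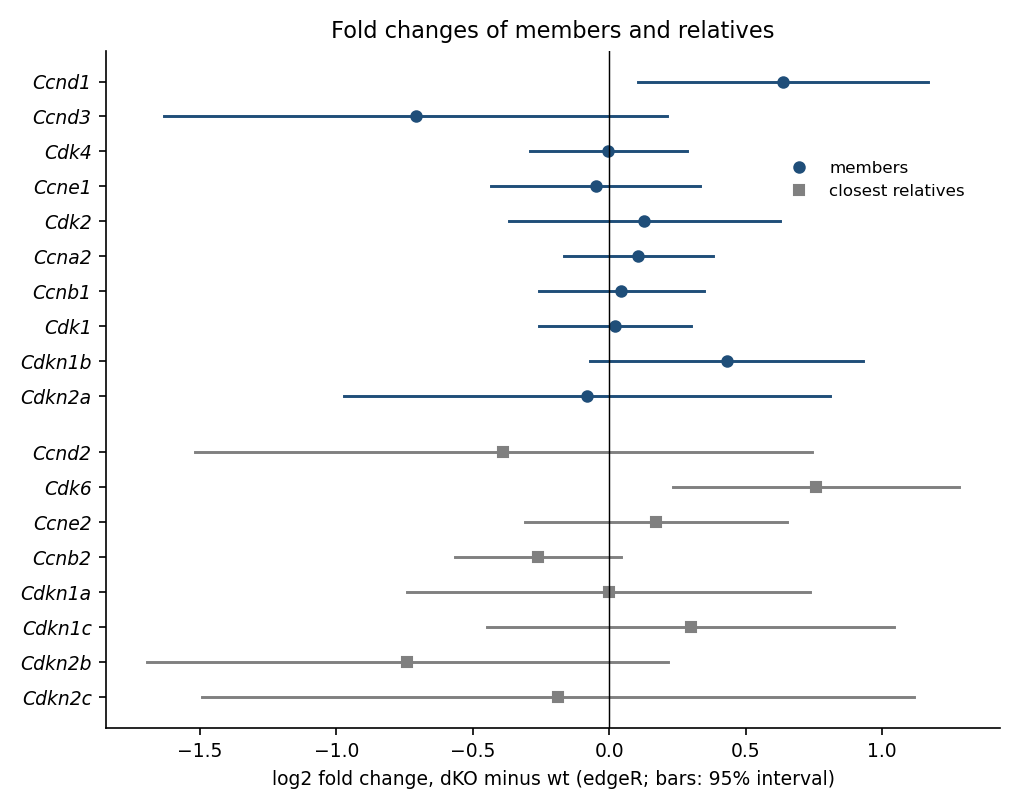
Log2 fold changes, dKO minus wt, with 95% intervals from edgeR, for the 10 members (blue circles) and the 8 closest relatives that were tested (grey squares). Intervals are narrow and centred near 0 for Cdk4, Ccna2, Ccnb1 and Cdk1, wide for Ccnd3 (-1.63 to 0.21) and Cdkn2a (-0.97 to 0.81), and above 0 for Ccnd1 and Cdk6, neither of which passed after adjustment.

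Ordered by mean level per length over the 4 libraries, the members ran from Cdk4 at 159 ± 4.87 CPM per kb (SD, n = 4) through Ccnb1 (91.9), Ccna2 (60.6), Ccne1 (55.6) and Cdk1 (42.7) to Ccnd1 (21.01), Cdk2 (20.1), Ccnd3 (15.6), Cdkn1b (8.10) and Cdkn2a (6.27 ± 1.60). Cdk4, Ccnb1 and Cdk1 were separated from their neighbours in every library. The ranges over libraries overlapped between Ccna2 and Ccne1, and between each neighbouring pair from Ccnd1 down to Cdkn2a. Per kb of the longest transcript the first 5 places held, Cdk2 and Ccnd3 stood above Ccnd1, and Cdkn2a stood above Cdkn1b.

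**Figure D4:**
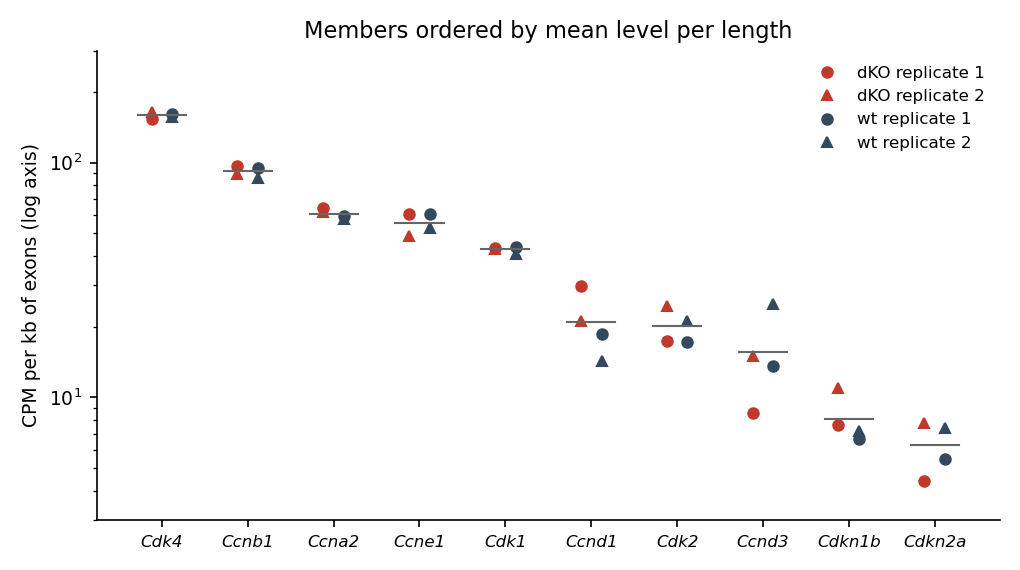
CPM per kb of annotated exons on a log axis for the 10 members in order of their mean (grey line), with dKO libraries in red left of wt libraries in dark blue, circles for replicate 1 and triangles for replicate 2. Cdk4 stands highest at a mean of 159 CPM per kb, and neighbours among the 5 lowest members overlap.

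Several rows share sequence with others, and the sources used here do not say whether counting used strand. In GENCODE M21 an opposite-strand gene overlaps the exons of 5 members: LTO1 covers 23.4% of Ccnd1 exon bases, Tspan31 19.7% of Cdk4, Exosc9 12.5% of Ccna2, Bysl 4.11% of Ccnd3 and Pmel 0.547% of Cdk2. If strand was not used, reads there cannot be told apart. The LTO1 row, beside Ccnd1, had 13.6 and 12.2 CPM in dKO and 14.1 and 13.9 CPM in wt libraries, a log2 fold change of -0.12, against 0.64 for Ccnd1. Pseudogene copies of Ccnb1, Ccnd3, Cdk1 and Cdk4 were found by alignment, and the 4 of 11 with a row had at most 2 counts in any library; counts of these members are uncertain as far as shared reads were divided or dropped.

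The wider cell cycle lists held 119 genes, all tested. Of these, edgeR, limma-voom and DESeq2 each called 0, against 0.0855%, 0.0356% and 0.684% of all genes. At an unadjusted p under 0.05 in edgeR there were 4 (3.36%; Ttk, Bub1b, Lin54 and Anapc10, named after their values were seen), against 5.57% of all genes. The median log2 fold change of the 119 was 0.02, against -0.002 over all genes tested. Both dKO libraries lay above both wt libraries for 27 genes (22.7%) and below them for 15 (12.6%), against 17.2% and 16.4% of all genes; these shares were not tested.

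By list, 0 of 14 other cyclins passed, with a median of 0.11; Ccng1, a p53 target, had a log2 fold change of -0.14 and Ccnl2, a splicing-linked cyclin, 0.16. None of the 14 other CDKs passed (median -0.05), with Cdk11b at 0.01 and Cdk7, the CDK-activating kinase, at 0.005. None of the 18 retinoblastoma, E2F and DREAM genes passed (median 0.06), with Mybl2, a transcription factor of proliferating cells, at 0.12 and E2f4 at 0.14. None of the 19 S phase genes passed (median 0.05), with the replicative helicase subunits Mcm7 at -0.09 and Mcm3 at 0.05.

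None of the 9 CDK phosphatases, kinases and adaptors passed (median -0.10), with the CDK-binding adaptors Cks2 at -0.03 and Cks1b at -0.14. None of the 18 mitosis genes passed (median 0.12), with Top2a, which untangles DNA, at 0.14 and the spindle checkpoint gene Bub1b at 0.32. None of the 20 ubiquitin ligase genes passed (median -0.06), with Cdc20, an activator of the anaphase-promoting complex, at 0.08 and Skp1a, a subunit of SCF ligases, at -0.30. Among 7 upstream genes none passed (median -0.03), with Mycn at 0.29 and Trp53 at -0.07.

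**Figure D5:**
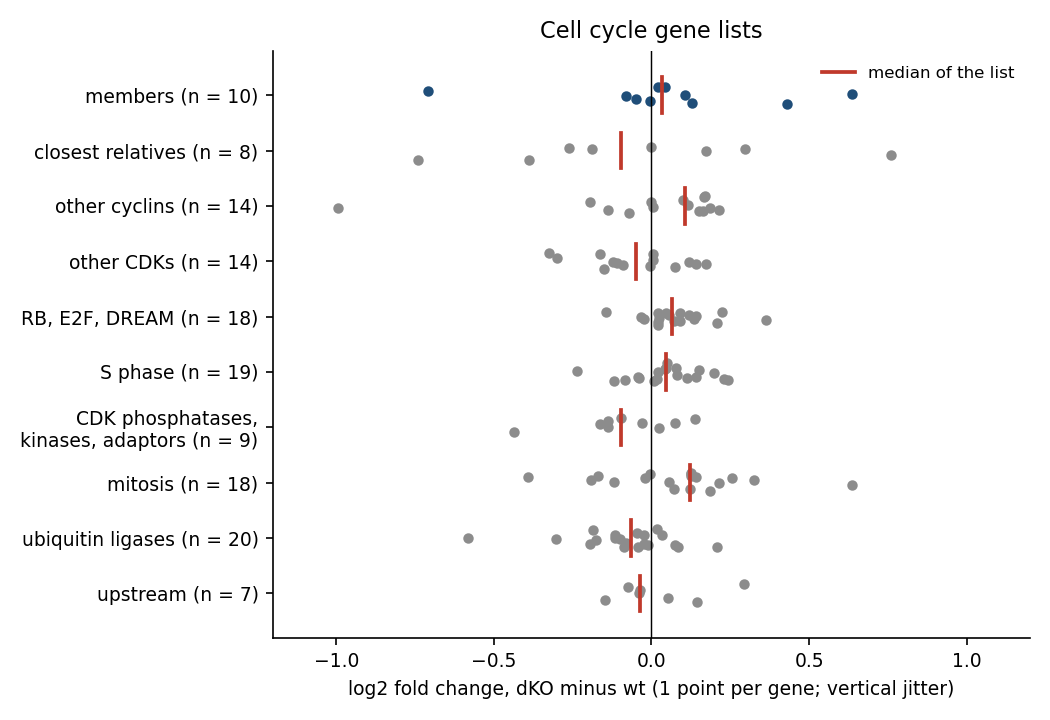
Log2 fold changes, dKO minus wt, of every tested gene in the members and 9 further cell cycle lists (1 point per gene, vertical jitter only), with a red line at each list's median. All medians lie between -0.10 and 0.12, and the members spread from -0.71 (Ccnd3) to 0.64 (Ccnd1).

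The members with the widest spread over the 4 libraries were Ccnd3 (range 1.55 log2 CPM), Ccnd1 (1.06) and Cdkn2a (0.81). Among 136 other tested cell cycle genes, those closest to Ccnd3 in centred log2 CPM were Tk1, Pttg1 and Ccnd2 (root mean square differences of 0.26, 0.28 and 0.28). Those closest to Ccnd1 were Ttk, Cdk6 and Mycn (0.14, 0.18 and 0.19), and those closest to Cdkn2a were Cdkn2c, Btrc and Rbl1 (0.07, 0.13 and 0.13). Cdkn2c had only 11 and 23 counts in dKO and 13 and 20 counts in wt libraries, so its distance is uncertain. These patterns rest on 4 libraries, and the closest genes were picked from 136. Whether any distance is unusual was not tested.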

How the data were processed

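Per the labels' protocols, total RNA of the 4 libraries was extracted with Trizol for Illumina TruSeq RNA sequencing. Raw counts of reads by Ensembl gene were deposited as 1 table. The submitters' processing notes list TopHat2 2.0.6, TopHat and HTSeq without saying what each did; build, annotation and strand setting are not given in the sources. On chromosome 1 the table's genes end at 197054592 at the latest and those of GENCODE M21 at 195323493, so gene positions are those of the table. Promoter windows are in GRCm38.p6 coordinates, so their positions cannot be compared directly with the gene positions. M21 gave symbols (32938 of 37991 rows), exon lengths and overlaps by gene ID.

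The filter was filterByExpr, the scaling TMM and the test edgeR 4.0.16 (R 4.3.3; robust quasi-likelihood F test, genotype as the only term, Benjamini-Hochberg over 14027 genes, threshold 0.05). SEs came from the F statistic. Alternatives used DESeq2 1.42.0, limma 3.58.1 voom, other scalings and filters, a replicate block and each library left out. The scripts were tested on simulated data. Copies were sought with blastn 2.17.0 at 85% identity over at least 200 bases.

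The members and lists were chosen with earlier results of these data known. Named genes were the members, their closest relatives and, per wider list, any called gene and the 2 with the highest CPM per kb. Also named were the genes closest in pattern to the members with the widest range. Genes with an unadjusted p under 0.05 in edgeR or called with the replicate block were named after their values were seen. Total counts of 12899964 to 16697970 limit precision for low genes. Sample titles gave the genotype groups.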

Additional observations from a re-analysis of the deposited data

How the results depend on the processing

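Members called stayed at 0 under every alternative except the replicate block, and the members' median log2 fold change stayed between 0.02 and 0.07. Genes called numbered 12, and 80 with no low-count filter, 96 by DESeq2 and 5 by limma-voom, while leaving out single libraries gave 18 to 27; the cause was not tested. With a library left out, the lone library of a genotype is assumed to vary like the others. Leave-one-out ranges that crossed 0 were -0.21 to 0.11 for Ccne1, -0.048 to 0.048 for Cdk4, -0.14 to 0.36 for Cdk2, -0.028 to 0.067 for Cdk1, -0.019 to 0.11 for Ccnb1 and -0.55 to 0.28 for Cdkn2a, all uncalled. With no filter Cdk4 had 0.0030. The highest member exceeded the lowest 25.4-fold per kb of exons and 31.1-fold per kb of the longest transcript. The labels do not say that replicate numbers pair libraries; same-numbered libraries deviated together over 14027 genes (r = 0.65), which is a property of these data, not a stated design. The replicate block called 1299 genes (9.26%) and 3 members, Ccnd1 (0.63, edgeR adjusted p = 8.5e-05), Ccnd3 (-0.70, 1.5e-05) and Cdkn1b (0.42, 0.0254); it also called Cdk6 and 6 of the 119 wider cell cycle genes (Ttk, Bub1b, Lin54, Anapc10, Pkmyt1 and Skp1a).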

Other observations

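Among the wider cell cycle genes with an unadjusted p under 0.05, chosen after their values were seen, Ttk, a spindle checkpoint kinase, had 122 and 109 CPM in dKO libraries and 79.0 and 69.2 CPM in wt libraries (log2 fold change 0.64, 95% interval 0.31 to 0.97, edgeR adjusted p = 0.463). Bub1b, another spindle checkpoint gene, had 379 and 343 CPM in dKO and 296 and 280 CPM in wt libraries (0.32, edgeR adjusted p = 0.844). Lin54, a DNA-binding subunit of the DREAM complex, had 60.8 and 55.3 CPM in dKO and 47.4 and 42.9 CPM in wt libraries (0.36, edgeR adjusted p = 0.844). Anapc10, a subunit of the anaphase-promoting complex, had 16.6 and 17.9 CPM in dKO and 21.7 and 30.0 CPM in wt libraries (-0.58, edgeR adjusted p = 0.843). None passed after adjustment. Genotypes did not overlap for any of the 4, which a choice by p-value in the same libraries favours. Over all genes tested, both dKO libraries lay above both wt libraries for 17.2% and below them for 16.4%.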
